A study of Rattus norvegicus with 15 samples.

Results

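Fatty acid oxidation was followed through 43 genes of its mitochondrial and peroxisomal enzymes, carriers and regulators in native and transplanted rat kidneys. The members were chosen by gene symbol. A probe set counted for a gene only if it carried that symbol alone, and for genes with several probe sets the one with the highest mean log2 signal over the 15 arrays was used. In this way 42 of the 43 genes were measured, out of 14217 genes on the array, with 22 in mitochondria, 12 in peroxisomes and 8 at other sites. The remaining gene, Acaa1a (peroxisomal thiolase), was read only by a probe set that it shares with Acaa1b.

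The control group (ctr) held 5 native kidneys, from rats of the strain Lewis Brown Norway (LBN). In the syngeneic group (sTX) 5 LBN kidneys were grafted into LBN rats, and in the allogeneic or acute group (aTX) 5 LBN kidneys went into Lewis rats, in which the graft is rejected. All rats were male and 10 to 12 weeks old, recipients lost both of their own kidneys, grafts were taken on day 4, and each kidney had its own Affymetrix array. These strains follow the methods and the series description, while the source names of the samples give other strains, and the sources used here do not say which control and graft shared a donor. The treatment field of sTX 4 and sTX 5 reads allogeneic against their titles, so results were also computed without both.

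Kidney tubules, above all those of the proximal tubule, draw much of their energy from fatty acids. A fatty acid is first joined to coenzyme A by a synthetase, is carried into the mitochondrion on carnitine by the carnitine acyltransferases, and is shortened there by repeated rounds of dehydrogenation, hydration, a further dehydrogenation and thiolytic cleavage, with the first electrons passing to the electron transfer flavoprotein. Peroxisomes run a similar cycle on very long and branched chains with enzymes of their own, and many genes of both cycles are targets of the fatty acid sensor PPAR-alpha and its coactivator Ppargc1a.

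Levels below are the deposited signal intensities, which average 100 on each array once the highest and lowest 2% of probe sets are set aside. Differences are log2 fold changes from limma over all 15 arrays, and a gene rose or fell where its p, adjusted over 31042 probe sets, was below 0.05. By the clock times of hybridization in the instrument records, read without the dates, the arrays fell into 2 sets separated by over an hour. These sets are taken here as 2 fluidics runs, an inference from those times alone. The first held all controls and aTX 2, 3 and 4, the second all sTX arrays and aTX 1 and 5. No run held both controls and sTX arrays. Gapdh probe sets at the 3' and 5' ends of the transcript, whose ratio follows RNA integrity, gave ratios between 1.13 and 1.25 in controls, 1.07 and 1.13 in sTX and 1.01 and 1.07 in aTX. The same ratio for actin differed more between the groups, at 1.54 to 1.98 in controls, 1.45 to 1.61 in sTX and 1.14 to 1.29 in aTX, with aTX apart from both. The part of RNA integrity in the results was not tested. All 14 proximal tubule markers measured gave clear signals in native kidneys, with a summed signal of 28055 to 34865, and none of them was below the array median on all arrays.

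Most members were lower in rejected grafts than in native kidneys. In aTX against ctr, 35 of 42 members fell and 2 rose, where 22.2% of all probe sets fell and 20.2% rose. With only the brightest probe set of each gene, as for the members, the shares were 27.7% lower and 27.7% higher. The median log2 fold change was −0.91 over the members and −0.07 over all probe sets. Amacr, the racemase for branched-chain fatty acids, fell the most, by 1.94 on the log2 scale, and the only genes to rise were the acyl-CoA synthetases Acsl5 and Acsl4. The 5 members not called were Hadha, Acox3, Pdk4, Acsl6 and Fabp1, and the last pair had signals near background on every array. For 34 of the 35 members that fell, every aTX array lay below every control array, which held for 16.9% of all probe sets. Because these are whole kidneys, fewer cells of a type and less RNA per cell cannot be told apart.

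Against the syngeneic grafts the rejected grafts were also lower. In aTX against sTX, 34 members fell and 3 rose, beside 22.1% and 13.9% of all probe sets, with medians of −0.60 and −0.18. Syngeneic grafts themselves differed less from native kidneys, with 19 members lower and 1 higher, beside 6.32% and 11.4% of all probe sets. With the brightest probe set of each gene the shares were 28.4% lower and 19.8% higher for aTX against sTX, and 8.86% lower and 16.1% higher for sTX against ctr. The median for sTX against ctr was −0.27 over the members, while over all probe sets it was 0.09. Group means stepped down from ctr to sTX to aTX in 31 of 42 members, an order that was not counted over all probe sets. The comparisons share their groups, so these counts are not independent of each other.

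**Figure D1:**
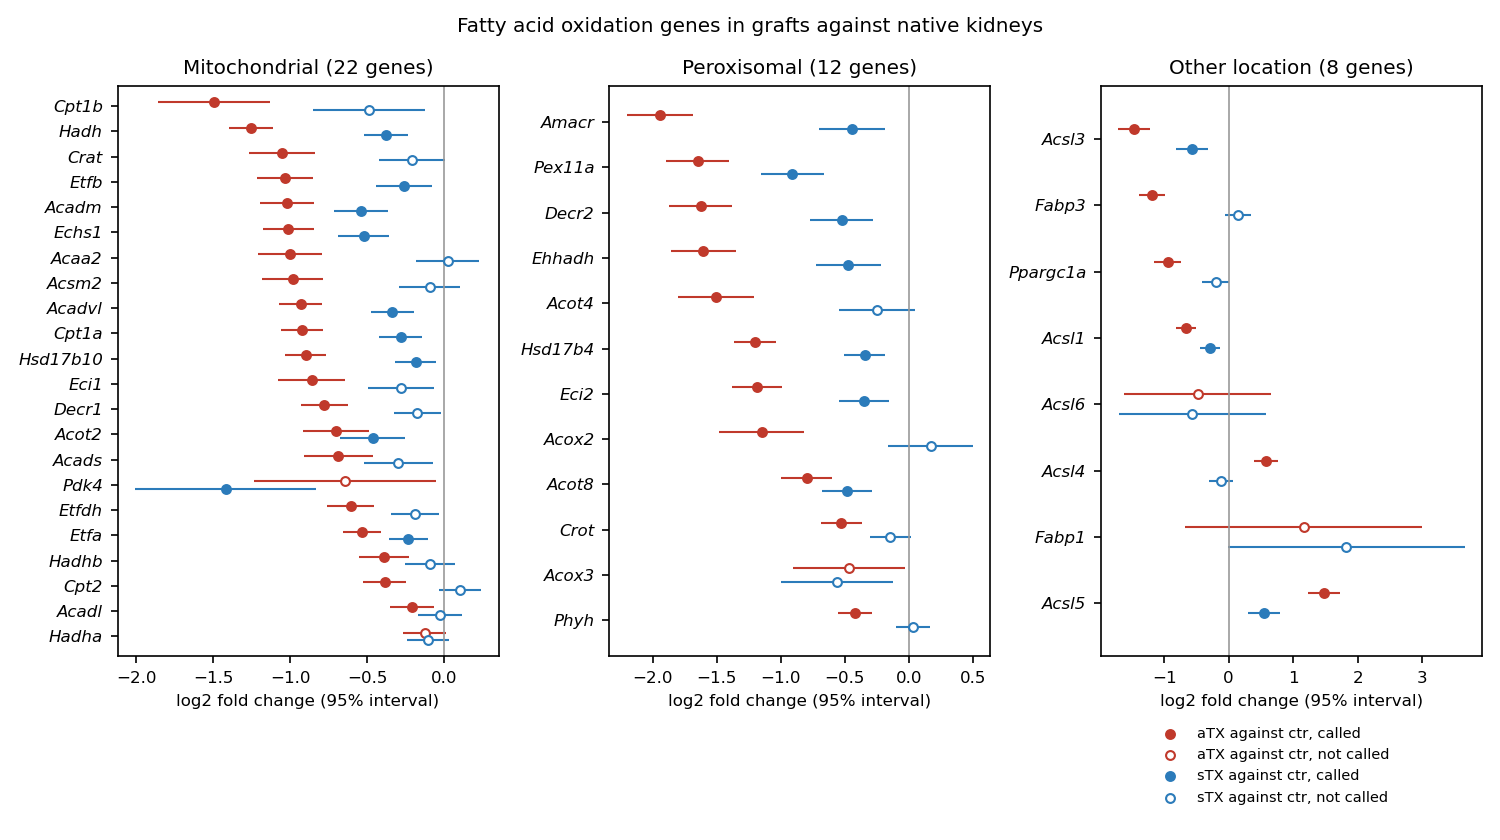
Log2 fold changes of the 42 measured members (x axis) with 95% intervals from the limma fit, for aTX against ctr (red) and sTX against ctr (blue), in 3 panels by location, with filled points for called genes and open points for the others. In the mitochondrial and peroxisomal panels no point for aTX lies above 0, and the blue points lie closer to 0 than the red ones for all but Pdk4, Acox3 and, in the last panel, Acsl6 and Fabp1.

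The synthetases that activate fatty acids went both ways. Acsl5, a long-chain acyl-CoA synthetase, gave signals of 169, 186, 292, 185 and 172 in the controls, 311, 285, 269, 271 and 304 in sTX and 564, 588, 447, 581 and 567 in aTX. Every aTX array stood above every other array, and only ctr 3 reached into the range of the sTX arrays. Against ctr, Acsl5 rose by 1.48 ± 0.12 (SE, log2) in aTX and by 0.55 in sTX, and aTX was above sTX by 0.93, with adjusted p of 2.6e-09, 0.00259 and 2.93e-06. Another, dimmer probe set of Acsl5 also rose in both graft groups against ctr, but by 0.56 in each, and it was not called in aTX against sTX. Acsl4, which prefers arachidonate and other polyunsaturated fatty acids, read 408, 510.4, 402, 438 and 366 in ctr, 430.5, 383, 383, 384 and 363 in sTX and 714, 666, 666, 540.5 and 593 in aTX. Here sTX and control arrays overlapped and all aTX arrays lay above both. Acsl4 rose 1.5-fold against ctr (adjusted p = 1.3e-05) and 1.63-fold against sTX (adjusted p = 1.93e-06), and its log2 difference between sTX and ctr was −0.12 (95% interval −0.31 to 0.06).

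The other synthetases with a clear signal fell. For Acsl3, a synthetase of lipid droplets and the endoplasmic reticulum, the control arrays gave 245, 238, 192, 237 and 234, the sTX arrays 128, 124, 154.5, 176 and 201 and the aTX arrays 76.3, 81.9, 75.1, 89.6 and 93.4. The aTX arrays lay apart at the bottom, and sTX 5 was the only sTX array to pass ctr 3. Acsl3 fell 2.76-fold in aTX (adjusted p = 2.47e-09) and 1.48-fold in sTX against ctr (adjusted p = 0.00172). Acsm2, a medium-chain synthetase of the mitochondrial matrix, stood at 3387, 3130.5, 2528.5, 3768 and 3613 in ctr, 2790.5, 3346.5, 2914, 2981 and 3254 in sTX and 1593, 1539.7, 1616, 1771.5 and 1733.5 in aTX. Controls and sTX overlapped throughout and aTX lay below both, with a fall of 1.97-fold against ctr (adjusted p = 3.37e-08). Acsl1, the main long-chain synthetase of oxidative tissues, fell 1.58-fold in aTX and 1.23-fold in sTX against ctr. Acsl6 never passed a signal of 2.3.

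All 5 carnitine acyltransferases fell in aTX against ctr. Cpt1b, the muscle-type outer membrane transferase, measured 117, 131, 224, 97.7 and 106 in ctr, 79.2, 72.1, 109, 103 and 102 in sTX and 45.4, 45.6, 47.7, 42.1 and 48.5 in aTX. Its aTX values were narrow and low, while the controls ran from 97.7 to 224. The fall was 2.81-fold in aTX against ctr (adjusted p = 4.79e-07) and the sTX difference was not called (log2 −0.49, adjusted p = 0.0593). Cpt1a, the liver-type isoform of this rate-limiting step, gave 1041, 1060.4, 1149.7, 1084 and 1134 in ctr, 846, 879.8, 945, 897 and 928 in sTX and 588, 614, 633, 549 and 509 in aTX. The 3 groups of Cpt1a did not overlap at all. The log2 fold change was −0.92 ± 0.07 (SE) in aTX and −0.28 in sTX against ctr, with adjusted p of 3.8e-10 and 0.00427. Crat, which buffers acetyl groups on carnitine, read 648, 629, 623, 594 and 729.9 in ctr, 549, 539.9, 499.5, 631 and 571 in sTX and 229, 333, 339, 372 and 297 in aTX, with aTX 1 lowest of all and aTX apart from both other groups. It fell 2.08-fold against ctr (adjusted p = 4.09e-08) and 1.8-fold against sTX. Cpt2, the inner membrane partner of Cpt1, fell 1.31-fold in aTX, and Crot, the peroxisomal carnitine octanoyltransferase, fell 1.44-fold. Neither was called in sTX against ctr.

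The acyl-CoA dehydrogenases, which open each round of the mitochondrial cycle for a given chain length, all fell in aTX against ctr, but by unequal amounts. Acadm (medium chains) gave 2639, 2643, 2897, 2866 and 2983 in ctr, 1759, 1712, 1815, 2057 and 2376 in sTX and 1290.4, 1381, 1360.3, 1417.5 and 1464 in aTX, so the 3 groups were separate. The folds were 2.03 in aTX (adjusted p = 2.93e-09) and 1.45 in sTX against ctr (adjusted p = 0.000106). Acadvl (very long chains) gave 693, 719, 769, 726 and 769 in ctr, 561, 518, 606, 624 and 608.5 in sTX and 393, 389, 415, 345 and 389 in aTX, again without overlap, and fell 1.91-fold in aTX and 1.26-fold in sTX against ctr. For Acads (short chains) the values were 344, 348.5, 357, 436 and 448 in ctr, 268, 295, 322, 345 and 341 in sTX and 215.5, 268, 193, 283 and 245.5 in aTX. The aTX arrays were below all controls but met the lower sTX arrays, and the fall against ctr was 1.61-fold (adjusted p = 2.13e-05). Acadl (long chains) had the smallest called fall of all members, from 1245 ± 86.3 in ctr to 1078 ± 68.0 in aTX (SD, n = 5), a log2 difference of −0.21 (adjusted p = 0.0182). Its groups overlapped, and the call was lost without ctr 5 (adjusted p = 0.0561) or without aTX 3 (adjusted p = 0.0531). Against sTX it fell 1.14-fold (adjusted p = 0.0412), a call lost without any 1 of aTX 2, 3 or 4 or of sTX 3, 4 or 5 (adjusted p from 0.0803 to 0.105).

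Electron transfer from these dehydrogenases was read by 3 genes, all lower in aTX than in either other group. Etfb, the smaller subunit of the electron transfer flavoprotein, gave 1287, 1415, 1468, 1177 and 1524 in ctr, 1030.5, 1079.7, 1131.5, 1133 and 1357 in sTX and 711, 679.8, 597, 619 and 748 in aTX. Etfa, its partner subunit, gave 1258, 1180.2, 1154, 1212 and 1329.8 in ctr, 1027, 1125, 1018, 1043 and 1008 in sTX and 811, 856, 828, 906.5 and 836 in aTX. In both, the aTX arrays were the lowest, and for Etfa the sTX arrays also lay below all controls. The fall against ctr was 2.05-fold for Etfb (adjusted p = 5.41e-09) and 1.45-fold for Etfa (adjusted p = 2.63e-07). Etfdh, which hands the electrons on to ubiquinone, read 564, 481.5, 540.4, 462 and 555 in ctr, 407, 471, 431, 464 and 509 in sTX and 316, 330.5, 354, 358.5 and 346 in aTX. It fell 1.52-fold in aTX against ctr (adjusted p = 8.2e-07), and controls and sTX overlapped.

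Of the later steps of the mitochondrial cycle, Hadh, the hydroxyacyl-CoA dehydrogenase of shorter chains, changed most. Its signals were 1823, 1739, 1740.5, 1922 and 2026 in ctr, 1346, 1259, 1491.5, 1515.5 and 1525 in sTX and 743, 776, 763, 781.5 and 815 in aTX. The groups were far apart and the aTX arrays lay close together. Hadh fell 2.38-fold in aTX (adjusted p = 8.17e-12) and 1.3-fold in sTX against ctr (adjusted p = 0.000545). Echs1, the short-chain enoyl-CoA hydratase, gave 1169, 1142, 1076, 1189.8 and 1207 in ctr, 814, 763, 716, 846 and 897 in sTX and 491, 645, 607, 611 and 526 in aTX, also without overlap, and fell 2.02-fold and 1.44-fold against ctr. Acaa2, the mitochondrial thiolase, read 864, 897, 771, 977 and 1036 in ctr, 704, 977.5, 1127.5, 955 and 883 in sTX and 456, 441, 467, 441 and 453 in aTX. Its sTX arrays spread beyond the control range on both sides, and its aTX arrays fell within a narrow band at the bottom, 2.0-fold below ctr (adjusted p = 4.89e-08). Hsd17b10, which also serves isoleucine breakdown, fell 1.87-fold in aTX (adjusted p = 3.27e-10).

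Hadha and Hadhb encode the subunits of the mitochondrial trifunctional protein, which carries out the last steps for long chains. The genes lie head to head, and the 243 bases between their annotated starts (GRCr8, chr6:31907558-31907800, plus strand, RefSeq) are shown because both genes are read outward from this stretch. It holds no copy of the nuclear receptor unit AGGTCA on either strand and 1 GC box (GGGCGG or its complement), which is in capitals. The 300-base promoter window of Hadhb, used further below and reaching beyond this stretch, did hold AGGTCA, and that of Hadha did not.
Hadhb to Hadha: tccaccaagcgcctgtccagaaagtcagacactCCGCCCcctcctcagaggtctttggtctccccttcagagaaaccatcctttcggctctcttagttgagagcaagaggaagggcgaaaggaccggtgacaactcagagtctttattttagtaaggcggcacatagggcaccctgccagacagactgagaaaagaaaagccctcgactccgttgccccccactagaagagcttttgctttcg
Hadhb ranged from 1664 to 2062 in ctr, from 1588 to 1875 in sTX and from 1290 to 1483 in aTX. Its fall in aTX was 1.31-fold against ctr (adjusted p = 0.00027) and 1.23-fold against sTX (adjusted p = 0.00397). Hadha ranged from 1051 to 1300 in ctr, 1066 to 1151 in sTX and 1032 to 1146 in aTX, and was called in no comparison. Its log2 difference in aTX against ctr was −0.13 (95% interval −0.26 to 0.01, adjusted p = 0.136), but without ctr 1, the lowest control, it was −0.17 and was called (adjusted p = 0.046). The log2 ratio of Hadhb to Hadha within an array was 0.64 ± 0.17 in ctr, 0.66 ± 0.06 in sTX and 0.38 ± 0.10 in aTX (SD, n = 5). By exact two-sided permutation tests adjusted over 3 comparisons, the aTX ratio differed from sTX (p = 0.0238), while against ctr the adjusted p was 0.0595. This pair was set against each other with its values known.

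The auxiliary enzymes that prepare unsaturated chains come in a mitochondrial and a peroxisomal version, and all 4 fell in aTX. Decr2, the peroxisomal dienoyl-CoA reductase, gave 1529.5, 1433, 1124, 1661 and 1758 in ctr, 899, 1037, 1019.7, 1103 and 1115 in sTX and 371, 525, 509, 575 and 452 in aTX. No group touched another, and the fall was 3.08-fold in aTX (adjusted p = 5.3e-10) and 1.44-fold in sTX against ctr (adjusted p = 0.00345). Eci2, the enoyl-CoA isomerase of peroxisomes, gave 794, 843, 870, 964 and 868 in ctr, 577, 667, 690.2, 763.5 and 718 in sTX and 309.7, 399.5, 389.8, 461 and 363.5 in aTX. These groups were separate too, with falls of 2.27-fold and 1.27-fold against ctr. Eci1, the mitochondrial isomerase, read 1081, 1045, 1054, 1136 and 1477 in ctr, 763, 869, 922, 1104 and 1121.5 in sTX and 618, 654, 648, 639 and 606 in aTX. Controls and sTX overlapped and ctr 5 stood above all others, with a fall of 1.82-fold in aTX against ctr (adjusted p = 7.57e-07). Decr1, the mitochondrial reductase, fell 1.71-fold in aTX, and its sTX difference from ctr was not called (log2 −0.17).

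The core cycle of the peroxisome showed deep falls in the bifunctional enzymes. Ehhadh, the L-bifunctional enzyme, gave 914.5, 796, 835, 881 and 954 in ctr, 490, 551, 647, 716 and 789.5 in sTX and 213, 322, 295, 312 and 312 in aTX. The sTX arrays spread widely but stayed below all controls, and all aTX arrays lay below sTX. Ehhadh fell 3.04-fold in aTX (adjusted p = 1.04e-09) and 1.39-fold in sTX against ctr (adjusted p = 0.00924). Hsd17b4, the D-bifunctional enzyme, gave 1737, 1756, 1610.4, 1909 and 1909 in ctr, 1344, 1393, 1289, 1455 and 1539 in sTX and 662, 787, 883, 778 and 776 in aTX, with no overlap. The folds were 2.3 in aTX (adjusted p = 9.14e-11) and 1.27 in sTX against ctr (adjusted p = 0.00335). Acox2, the oxidase of branched chains and bile acid precursors, had low signals of 38.5, 39.8, 55.2, 40.8 and 41.8 in ctr, 50, 44.2, 43.4, 52.4 and 51.4 in sTX and 17.7, 17.2, 17.9, 18.2 and 27.3 in aTX. Controls and sTX overlapped, and aTX was 2.21-fold below ctr (adjusted p = 4.38e-06). Acox3, another branched-chain oxidase with signals between 21.0 and 58.2, was called in no comparison, and its log2 difference in aTX against ctr was −0.47 (95% interval −0.90 to −0.03, adjusted p = 0.0831). Without ctr 2 the adjusted p was 0.0366, and without ctr 3 it was 0.0231.

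Amacr, which turns branched-chain acyl-CoA into the mirror form that the peroxisomal oxidase accepts, had the largest fall of the 42 members. Its signals were 1892, 1973, 1861, 1879 and 2176 in ctr, 1329.5, 1385, 1367, 1577 and 1543 in sTX and 332, 527, 515, 639 and 585 in aTX. All 3 groups were apart, with aTX 1 the lowest array. The fall was 3.85-fold in aTX against ctr (adjusted p = 7.75e-11), 2.83-fold in aTX against sTX (adjusted p = 7.4e-09) and 1.36-fold in sTX against ctr (adjusted p = 0.0163). The 250 bases before its start (GRCr8, chr2:61673085-61673334, plus strand, RefSeq) are shown for the member that fell most, with its copy of AGGTCA, a unit that PPAR-alpha and other nuclear receptors bind in repeats, in capitals.
Amacr: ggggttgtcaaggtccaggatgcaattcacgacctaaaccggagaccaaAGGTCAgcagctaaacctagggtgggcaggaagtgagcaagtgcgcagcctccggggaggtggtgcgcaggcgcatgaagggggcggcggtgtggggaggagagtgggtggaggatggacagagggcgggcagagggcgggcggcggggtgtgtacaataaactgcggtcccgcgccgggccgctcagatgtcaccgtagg
Among promoter windows of 300 bases (250 before to 50 after a start), 10 of 38 members and 16.2% of all 33469 windows held AGGTCA on either strand. The full direct repeat AGGTCANAGGTCA was in 0 of 38 member windows and in 0.0538% of all, and a looser form, AGGNCANAGGNCA, was in 1 member window, that of Fabp1, and in 0.415% of all. Windows with a repeat of the full form also hold the single unit and the looser form. The GC box GGGCGG was in 24 member windows, 63.2%, and in 33.1% of all. These are matches of letters and no measured binding.

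Pex11a, which promotes the division of peroxisomes, gave 391, 273, 245, 272 and 294 in ctr, 134, 153, 176, 145 and 169 in sTX and 79.7, 110.1, 97.8, 97.8 and 82.3 in aTX. The groups of this probe set did not overlap, and ctr 1 was the highest array. Pex11a fell 3.13-fold in aTX (adjusted p = 4.24e-10) and 1.88-fold in sTX against ctr (adjusted p = 1.49e-05), the latter being the lowest log2 value in sTX among peroxisomal members (−0.91). A dimmer probe set of Pex11a, with means of 92.6 in ctr, 43.1 in sTX and 38.6 in aTX, was also lower in both graft groups than in ctr but was not called in aTX against sTX (log2 −0.15, adjusted p = 0.636). Phyh, which starts the alpha-oxidation of phytanic acid, read 1553.5, 1552, 1620.5, 1429 and 1594 in ctr, 1519, 1563, 1448, 1636 and 1780.3 in sTX and 1158, 1146, 1172, 1142 and 1157 in aTX. The sTX arrays overlapped the controls and aTX formed a tight lower group, for a fall of 1.34-fold against ctr (adjusted p = 1.21e-05).

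**Figure D2:**
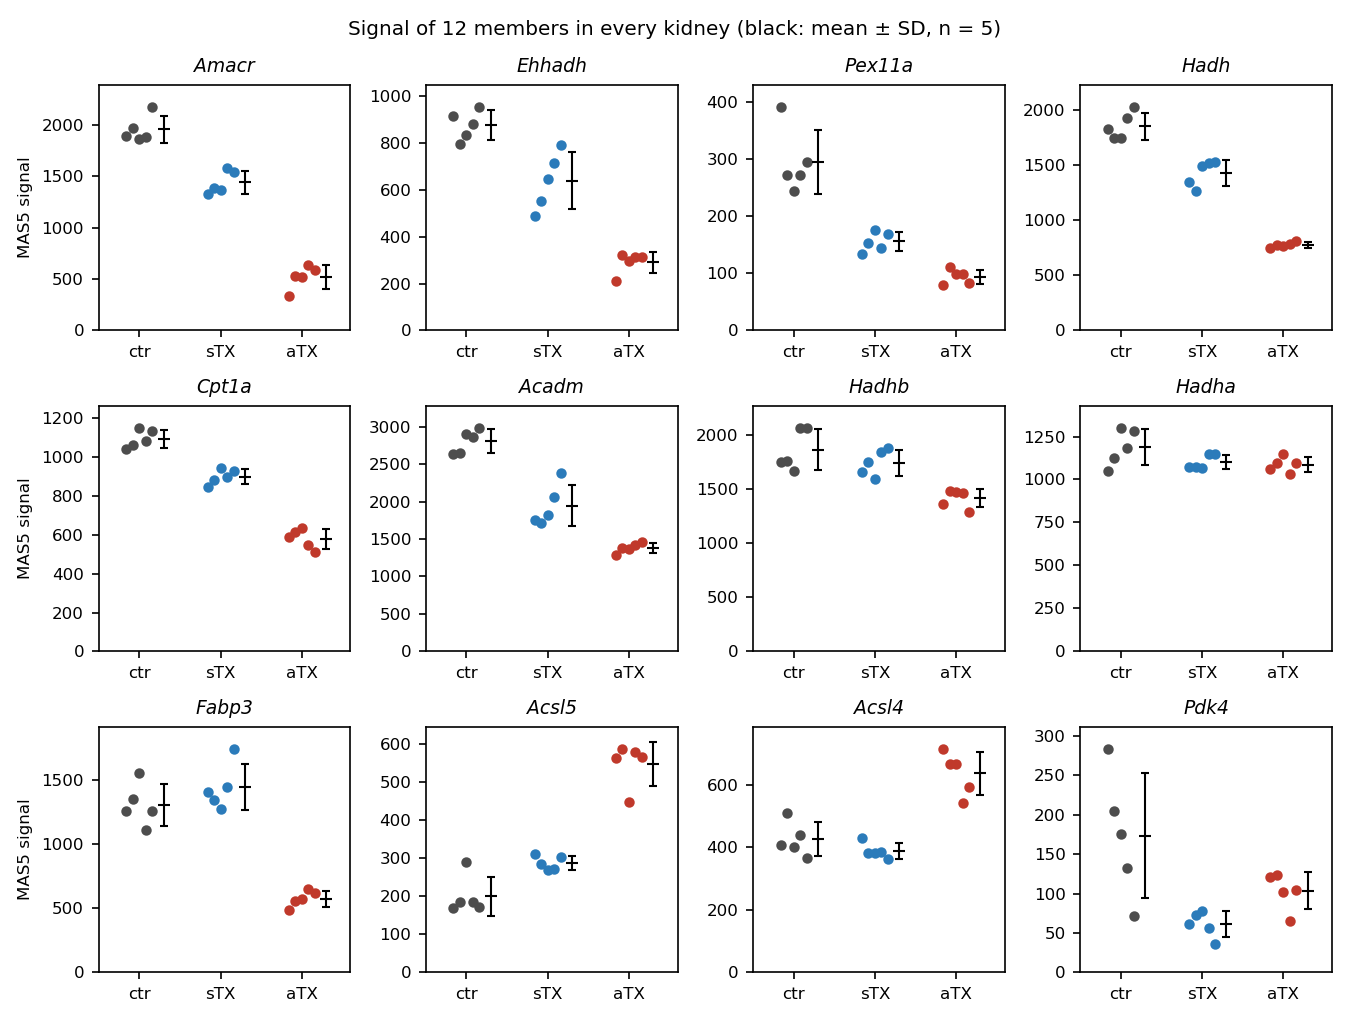
Deposited signal (y axis, linear, from 0) of 12 members in each of the 15 kidneys, with points in order of array number within ctr, sTX and aTX and black marks for the mean ± SD (n = 5). Amacr, Ehhadh, Pex11a, Hadh, Cpt1a and Acadm step down from ctr to sTX to aTX without overlap, Hadha stays between 1032 and 1300 in all groups, Acsl5 and Acsl4 are highest in aTX, and Pdk4 is lowest in sTX.

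The acyl-CoA thioesterases, which release free acids from coenzyme A, fell as well. Acot4 gave 314, 394, 239, 312 and 333 in ctr, 239.5, 317, 247, 315 and 220.2 in sTX and 89.1, 118, 101, 151 and 105 in aTX. Controls and sTX overlapped and aTX lay far below, at 2.83-fold less than ctr (adjusted p = 2.58e-08). Acot8, a peroxisomal thioesterase, gave 289.6, 352, 415.5, 356 and 362 in ctr, 255, 222, 226, 280.4 and 284 in sTX and 189, 208.5, 183, 213 and 224 in aTX. Both graft groups were below all controls, by 1.74-fold in aTX and 1.4-fold in sTX, and aTX 5 passed sTX 2. Acot2, a mitochondrial thioesterase, read 455, 457, 327, 479 and 378.5 in ctr, 300.1, 291, 260.4, 358 and 304 in sTX and 233, 277, 268, 265 and 237 in aTX. Here sTX 4 passed ctr 3, and aTX overlapped sTX but not ctr. Acot2 fell 1.63-fold in aTX (adjusted p = 7.48e-06) and 1.38-fold in sTX against ctr (adjusted p = 0.00271), whereas aTX against sTX was not called (log2 −0.24, 95% interval −0.45 to −0.03, adjusted p = 0.0744). Its 2 dimmer probe sets, with control means of 114 and 89.6, read otherwise. They were not called in sTX against ctr (log2 0.15 and 0.00) and were lower in aTX than in sTX (log2 −0.57 and −0.49, adjusted p of 0.00567 and 0.0232).

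Among the carriers and regulators, Fabp3, the heart-type fatty acid binding protein, was lower in the rejected grafts than in both other groups. It measured 1254, 1349.9, 1551, 1111 and 1259 in ctr, 1407, 1345, 1270.4, 1443 and 1740.5 in sTX and 484, 553, 568, 648 and 615 in aTX. Controls and sTX overlapped, and every aTX array was below both. Fabp3 fell 2.27-fold against ctr (adjusted p = 3.63e-09) and 2.51-fold against sTX (adjusted p = 1.53e-09), while its log2 difference between sTX and ctr was 0.14 (95% interval −0.06 to 0.35). Ppargc1a, the PPAR coactivator that drives mitochondrial genes, gave 368, 403, 365, 476 and 347 in ctr, 310.1, 310.4, 349, 436 and 304 in sTX and 184, 197, 219.6, 219.7 and 196 in aTX, and fell 1.92-fold in aTX against ctr (adjusted p = 1.48e-07). Its aTX arrays lay below all others, and sTX overlapped ctr.

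Pdk4, the kinase that shuts off pyruvate dehydrogenase when fat is burned, had a pattern of its own. Its signals were 284, 204.5, 175.5, 133 and 71.9 in ctr, 61.4, 73.4, 78.4, 56.6 and 35.7 in sTX and 122, 124, 102, 65.2 and 105 in aTX. The controls spread widely, and both graft groups reached into their range. Pdk4 fell 2.67-fold in sTX against ctr (adjusted p = 0.00125), rose 1.71-fold in aTX against sTX (adjusted p = 0.0368) and was not called in aTX against ctr (log2 −0.64, 95% interval −1.23 to −0.05, adjusted p = 0.076). It was the only member called in opposite directions in these steps. Without ctr 5, the lowest control, it was called lower in aTX against ctr (log2 −0.93, adjusted p = 0.0032), and without any 1 of aTX 1, 2, 3 or 5 or of sTX 1, 4 or 5 the rise over sTX was not called (adjusted p from 0.0532 to 0.116). Its other probe set fell in sTX against ctr too (1.79-fold) and was not called in aTX against sTX.

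Fabp1, the liver-type binding protein, was at background. Its signals were 0.6, 3.3, 1.3, 0.5 and 2.4 in ctr, 8.4, 0.6, 5.2, 8.2 and 7.9 in sTX and 2.2, 0.4, 5.4, 4.2 and 8.6 in aTX, and all groups overlapped. No difference was called (adjusted p = 0.327 in aTX and 0.175 in sTX against ctr), although without sTX 2 the sTX difference was (log2 2.54, adjusted p = 0.0394). Its upstream stretch (GRCr8, chr4:104749090-104749339, plus strand, RefSeq) is shown as the only one of a member with the looser direct repeat, in capitals, here on the minus strand.
Fabp1: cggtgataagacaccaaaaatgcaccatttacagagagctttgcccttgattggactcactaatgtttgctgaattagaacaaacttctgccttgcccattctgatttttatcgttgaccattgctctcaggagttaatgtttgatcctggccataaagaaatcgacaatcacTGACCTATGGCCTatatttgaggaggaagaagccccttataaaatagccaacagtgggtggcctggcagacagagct

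Set side by side, the peroxisomal members were by their median further below the controls than the mitochondrial ones, but single members overlapped. Log2 fold changes in aTX against ctr ran from −1.94 to −0.42 in the peroxisomal list and from −1.49 to −0.13 in the mitochondrial list. Each member was put in a single location, Amacr and Eci2 with the peroxisomal members and Crat with the mitochondrial ones. A second location of a gene product was not allowed for in these lists. Amacr set the −1.94 end of the peroxisomal list. In aTX against ctr 11 of 12 peroxisomal members fell, with a median log2 fold change of −1.19, and 20 of 22 mitochondrial members fell, with a median of −0.88. Against sTX the counts were 11 and 19 and the medians −0.85 and −0.53. The mean log2 deviation from the control mean over the 12 peroxisomal members ran from −1.39 to −1.09 in the aTX arrays, and over the 22 mitochondrial members from −0.84 to −0.75. Taken within each array, the peroxisomal mean minus the mitochondrial mean lay between −0.54 and −0.28 in aTX, between −0.15 and −0.02 in sTX and between −0.07 and 0.05 in ctr. By this measure all 5 aTX arrays lay below all 10 others. These means are descriptions of the lists and were not tested.

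Most markers of the proximal tubule and of other resident kidney cells fell in aTX, as the members did. All 14 proximal tubule markers measured fell in aTX against ctr, with a median log2 fold change of −1.11, and their summed signal was 24830 to 29342 in sTX and 12699 to 16974 in aTX. Their mean log2 deviation from the controls was −1.45 to −1.03 in aTX, lowest in aTX 1, which also had the lowest peroxisomal mean. Within arrays, the peroxisomal mean minus the marker mean lay between −0.05 and 0.08 in aTX and between −0.16 and 0.14 in ctr, so the groups overlapped. The mitochondrial mean minus the marker mean was 0.22 to 0.61 in aTX and −0.20 to 0.22 in ctr, with the lowest aTX array just above the highest control. Markers of the thick ascending limb and distal tubule fell in 7 of 8, of the collecting duct in 7 of 8, of the podocyte in 4 of 5 (with 1 higher) and of the endothelium in 6 of 7 genes. The medians of these lists were −0.98, −0.90, −1.08 and −0.99 in that order, where the median over all members was −0.91. The fall was thus not particular to proximal tubule markers, the only list that was subtracted from the members within arrays. Markers of T and cytotoxic lymphocytes rose in 9 of 9, with summed signals of 145 to 240 in ctr and 3358 to 5254 in aTX, and those of macrophages and monocytes in 11 of 11, from 2190 to 2764 in ctr to 11667 to 14506 in aTX. The part of these shifts in the members' changes was not tested.

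**Figure D3:**
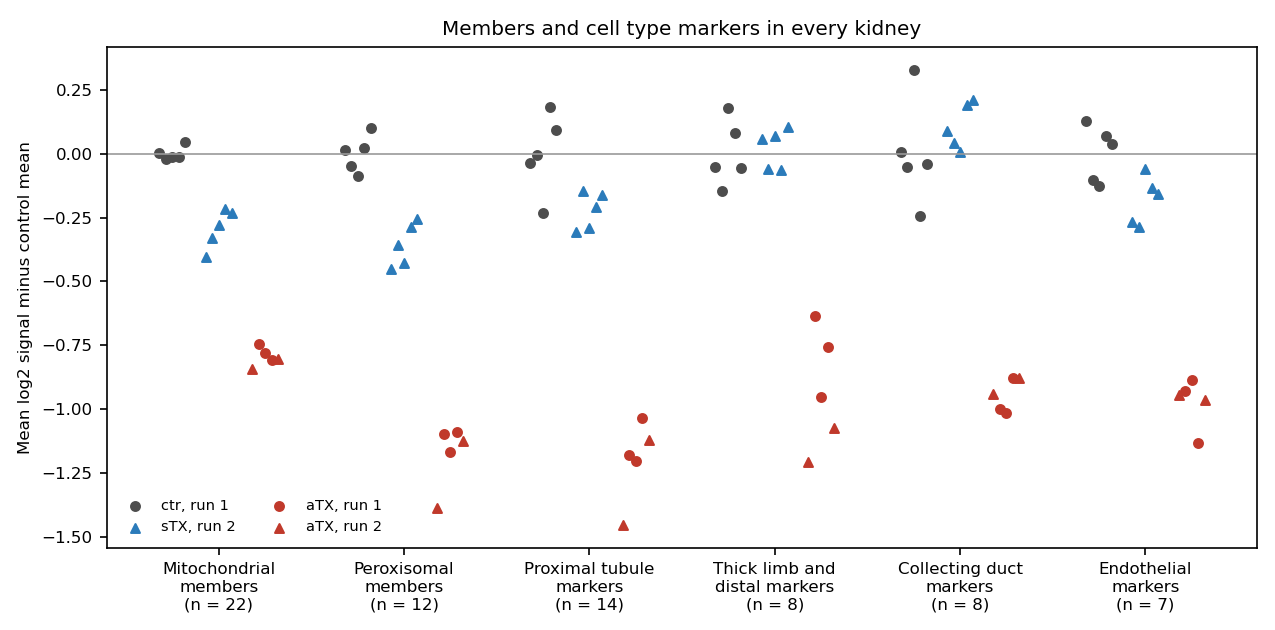
Mean log2 signal minus the control mean (y axis) of each list in each kidney. Circles mark the first and triangles the second inferred fluidics run. The mitochondrial members of aTX lie between −0.84 and −0.75, the peroxisomal members between −1.39 and −1.09 and the proximal tubule markers between −1.45 and −1.03, while the sTX arrays of the thick limb and collecting duct markers overlap the controls.

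In syngeneic grafts 10 of 22 mitochondrial members and 7 of 12 peroxisomal members fell against ctr, with medians of −0.25 and −0.40. Pdk4, Pex11a, Acsl3 and Acadm had the lowest log2 values among the called members, at −1.42, −0.91, −0.57 and −0.54. The calls of Hsd17b10 (adjusted p = 0.0485) and Etfb (adjusted p = 0.0445) were the weakest. Hsd17b10 lost its call without any 1 array other than aTX 5 or sTX 5, and Etfb without any 1 of aTX 2, ctr 1, 2, 3 or 5 or sTX 1, 2, 3 or 4. In this comparison 14 members had every sTX array below every control array, which held for 4.72% of all probe sets. Of the proximal tubule markers 5 of 14 fell, with a median of −0.22, and of the macrophage markers 10 of 11 rose, to summed signals of 3716 to 5467. The comparison depends on the fluidics run as inferred from the clock times, since no such run held both groups. With the run as a block, which leaves the aTX arrays as the only link between ctr and sTX, none of the 20 members called here remained called by limma (10 of 42 had an unadjusted p below 0.05), the medians were −0.19 and −0.15, and 713 probe sets were higher and 255 lower over the whole array. The lowest adjusted p among members was then 0.0604, for Acadm. Scaling matters as well, because centring each array on its median changed the median over all probe sets from 0.09 to −0.11, the probe sets called from 3539 higher and 1961 lower to 1812 higher and 4724 lower, and the mitochondrial members that fell from 10 to 20.

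The comparisons of rejected grafts depended less on the run. With the run as a block, and again within the first run alone, the call in aTX against ctr was the same for all 42 members. The medians with the block were −0.85 for mitochondrial and −1.20 for peroxisomal members. In aTX against sTX the block ended the calls of Acadl (adjusted p = 0.525), Acot8 (adjusted p = 0.102) and Pdk4 (adjusted p = 0.0766) and added that of Acot2 (adjusted p = 0.0468). Without sTX 4 and sTX 5 together, the median over the mitochondrial members in sTX against ctr was −0.29 and over the peroxisomal members −0.48, and in aTX against sTX the medians were −0.45 and −0.77. In aTX against sTX this ended the calls of Acadl (adjusted p = 0.187), Acads (0.08), Hadhb (0.053), Acot8 (0.154) and Pdk4 (0.245). In sTX against ctr it ended that of Etfa (adjusted p = 0.0507) and added falls of Acads (0.0449), Etfdh (0.0479) and Eci1 (0.00631).

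For 14 members the array held more than 1 probe set. The probe sets of a gene were never called in opposite directions, but at least 1 was called and another was not for 4 of the 14 in aTX against ctr, 7 in sTX against ctr and 8 in aTX against sTX. In sTX against ctr, the second probe sets of Cpt1a and Acsl1, with control means of 463 and 566, were not called, while those of Crot and Ppargc1a, with control means of 249.5 and 306, were called lower. The dim second probe set of Acaa2, with means of 39.0 in ctr, 20.2 in sTX and 7.22 in aTX, was lower in sTX too. Its log2 difference from ctr was −1.01 in sTX (adjusted p = 0.0209 by limma), where the brightest probe set of Acaa2 was not called.

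**Figure D4:**
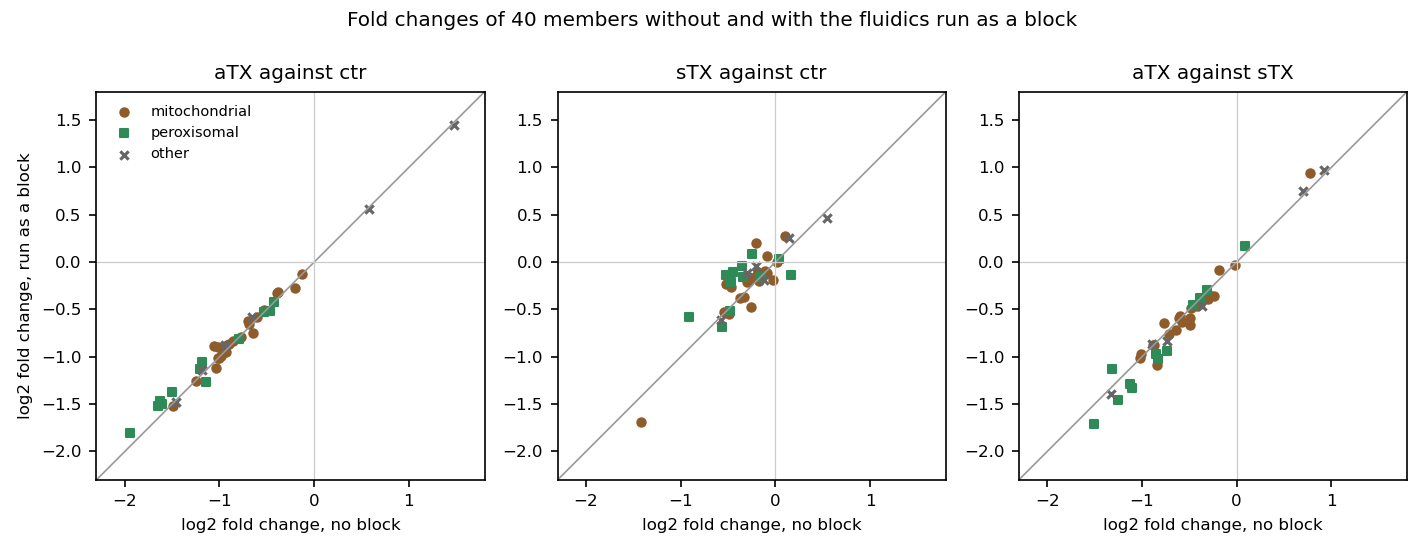
Log2 fold changes of 40 members without (x axis) and with (y axis) the inferred fluidics run as a block, for the 3 comparisons. Acsl6 and Fabp1, at background, were left out, and the line is that of equality. For aTX against ctr the points follow the line closely. With the block 25 of 40 points lie closer to 0 in aTX against ctr, 25 in sTX against ctr and 13 in aTX against sTX.

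Other genes of the pathway, none of them members, were read by lists written from general knowledge. Their counts stand beside the shares of all genes by the brightest probe set, of which 27.7% were lower in aTX than in ctr, 8.86% lower in sTX than in ctr and 28.4% lower in aTX than in sTX. Of the 30 calls in sTX against ctr over these lists, 3 (Hacl1, Lonp2 and Pex16) remained with the inferred fluidics run as a block. The block ended 6 of 79 calls in aTX against ctr (Abcd2, Scp2, Hao2, Pex3, Pex19 and Lpin1) and 9 of 73 in aTX against sTX (Acsm3, Acot9, Mcee, Pex11g, Pex26, Ppara, Pparg, Ppargc1b and Lpin1). These totals are sums over the lists, and Slc25a20, listed under carnitine supply and under targets of PPAR-alpha, is counted in both. Of the 5 enzymes and carriers of carnitine supply, 4 were lower in aTX than in ctr, 4 were lower in aTX than in sTX, and 2, Tmlhe and Aldh9a1, were lower in sTX than in ctr, both calls being lost with the block (adjusted p of 0.336 and 0.106). Tmlhe, the first enzyme of carnitine synthesis, went from 878 ± 37.6 in ctr to 519 ± 62.0 in sTX and 255 ± 53.5 in aTX (mean ± SD, n = 5), a fall of 3.51-fold in aTX. Aldh9a1, a later enzyme of that route, fell 2.41-fold. Of the genes of fatty acid uptake and other activation, 10 of 13 fell and 1 rose in aTX, and 3 of 13 fell in sTX against ctr. Fabp5, the epidermal-type binding protein, rose from 449.6 ± 94.5 to 1526 ± 101 (3.44-fold in aTX), while Fabp4, the adipocyte-type protein, fell from 101 ± 78.5 to 19.5 ± 3.86, with controls from 59.1 to 241.

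The remaining enzymes of both organelles followed the members. Among other mitochondrial acyl-CoA enzymes 12 of 13 fell and 1 rose in aTX against ctr, 7 of 13 fell in sTX against ctr, none of them with the block (lowest adjusted p = 0.19), and 12 fell and 1 rose in aTX against sTX. Acad10 fell 2.5-fold and Acadsb, which acts on branched short chains, fell 2.44-fold in aTX. Among other peroxisomal enzymes and transporters 19 of 21 fell and 1 rose in aTX, 6 of 21 fell in sTX against ctr, and 15 fell in aTX against sTX. Hacl1, the lyase that follows Phyh in alpha-oxidation, went from 491 ± 55.0 in ctr to 231 ± 11.8 in sTX and 117 ± 23.4 in aTX, a fall of 4.25-fold in aTX and 2.12-fold in sTX. The gene that rose, Agps of ether lipid synthesis, had signals of 1.0 to 16.9 in ctr and 22.6 to 41.7 in aTX. Peroxins were less uniform, with 7 of 12 lower and 1 higher in aTX, 3 lower and 1 higher in sTX against ctr, and falls of 2.06-fold for the import receptor Pex5 and 1.99-fold for Pex16 in aTX.

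Ketone body enzymes fell in 3 of 4 genes in each of the 3 comparisons, though in sTX against ctr none of the 3 calls remained with the block (adjusted p from 0.383 to 0.947). They included Bdh2 (3.1-fold in aTX against ctr) and Oxct1, which activates ketone bodies for use (1.8-fold). The gene not called in any comparison was Bdh1 (log2 −0.04 in aTX against ctr, adjusted p = 0.856 by limma). Of the genes of transcriptional and metabolic control, 10 of 19 fell and 3 rose in aTX, and 2 of 19 fell in sTX against ctr, near the share of all genes. The sensor Ppara had signals of 2.6 to 18.1 in ctr, 1.1 to 7.5 in sTX and 0.6 to 1.4 in aTX, too low for a firm fold, with an adjusted p of 0.0014 in aTX against ctr. Acacb, whose product malonyl-CoA inhibits Cpt1, was also dim, at 8.8 to 30.3 in ctr and 0.6 to 6.7 in aTX. Further targets of PPAR-alpha went both ways, with 3 of 9 higher and 4 lower in aTX and 2 higher and 1 lower in sTX against ctr. Angptl4, an inhibitor of lipoprotein lipase, rose from 43.6 ± 4.07 in ctr to 86.6 ± 37.9 in sTX and 273 ± 44.5 in aTX, 6.2-fold in aTX (adjusted p = 9.26e-09). Ucp2, a mitochondrial carrier, rose 2.41-fold in aTX (adjusted p = 2.81e-08).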

How the data were processed

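Per the labels and the file headers, the authors summarised each Affymetrix array (chip type Rat230_2) with MAS5 and deposited a signal intensity per probe set on a linear scale, 1 array per kidney, scaled to a common trimmed mean. Of 31099 probe sets 57 are Affymetrix controls, and 31042 were tested. Signals of 0 (54 values) were set to 0.05 before log2. Groups, taken from the sample titles, were compared with limma 3.58.1 (lmFit, contrasts.fit, eBayes with an intensity trend) in R 4.3.3, with all 15 arrays in 1 fit and Benjamini-Hochberg adjustment over all probe sets. A gene was called below an adjusted p of 0.05. Levels are arithmetic means ± SD, and folds are ratios of geometric means. Per-array values are given for the 3 members of each role with the largest change in aTX against ctr and for members called higher or in opposite directions, and pathway genes are the 2 of each list with the largest called change. Exact permutation tests (scipy 1.17.1), tables (pandas 2.3.3, numpy 2.4.6) and figures (matplotlib 3.10.9) were made in Python 3.11.15. Promoters are RefSeq windows on GRCr8, found for 38 of the measured members. The members and lists were chosen with earlier results of these data known. Sample numbers were not used to pair the kidneys. Deviations from the group means correlated above 0.1 in 0 of 15 same-numbered pairs (r from −0.02 to 0.03). Pairs with different numbers gave similarly small values, also within a run, so these correlations cannot show whether kidneys were paired. The model was tested on simulated data. Each result was recomputed under other scalings, floors, filters and tests, with the inferred fluidics run as a block, and without each array in turn. The number of arrays limits the precision, p-values measure only the spread between these kidneys, and protein sequences were not analysed here.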

Additional observations from a re-analysis of the deposited data

Results flagged for a closer look

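In 9 of 126 groups of 5 signals of a member, the highest or lowest array stood apart from the other 4 by more than 0.71 of the group's whole range, where chance gives about 1 in 20. In ctr 3, Acsl3 read 192.4 (others 234 to 245), Acsl5 read 291.6 (others 169 to 186) and Acox2 read 55.2 (others 38.5 to 41.8). In ctr 5, Eci1 read 1477 (others 1045 to 1136). Among syngeneic grafts, Cpt2 read 264.9 in sTX 3 (others 283 to 286) and Fabp1 read 0.6 in sTX 2 (others 5.2 to 8.4). Among rejected grafts, Acsl5 read 447.3 in aTX 3 (others 564 to 588), Acox2 read 27.3 in aTX 5 (others 17.2 to 18.2) and Ehhadh read 212.6 in aTX 1 (others 295 to 322). What sets these arrays apart was not tested.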

How the results depend on the processing

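Beside the main fit, a t-test as in the methods gave 6 mitochondrial members lower in sTX against ctr. At the methods' unadjusted threshold of 0.001 it called 3894 probe sets higher and 3808 lower in aTX against ctr, 1329 and 716 in sTX against ctr and 2838 and 3447 in aTX against sTX, with 6 mitochondrial and 3 peroxisomal members lower in sTX against ctr. Limma at that threshold called 2131 higher and 1111 lower in sTX against ctr and 4422 lower in aTX against sTX. Median centring gave 1812 higher, 4724 lower and 20 mitochondrial members lower in sTX against ctr. The inferred fluidics run as a block gave 713, 255 and 0, with 0 peroxisomal members, by limma. The mitochondrial member higher in aTX against sTX (Pdk4) was lost, leaving 0, with the run as a block, both t-tests, limma at 0.001, no intensity trend, an offset of 16 and without sTX 4 and 5. The mean of a gene's probe sets adds dimmer probe sets, some of them near background. With it, sTX against ctr was −0.49 for Acaa2 (adjusted p = 0.0205), 0.17 for Hadh (adjusted p = 0.837) and 0.28 for Acsl1 (adjusted p = 0.598). In aTX against ctr, the calls of all 42 members were kept with the run as a block, within 1 run, with a floor of 1, without the trend, with the offset and by the adjusted t-test, and 38 members passed a filter at a signal of 50. Median centring added 3 member calls there, and quantile normalization ended 1 and added 1. The mean of a gene's probe sets ended 2, and the unadjusted threshold of 0.001 ended 1 by limma and 1 by the t-test.

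Leaving out each array in turn gave 5907 to 6276 probe sets higher and 6419 to 6868 lower in aTX against ctr, 2860 to 3507 and 1581 to 2020 in sTX against ctr, and 4088 to 4448 and 6329 to 6979 in aTX against sTX. Mitochondrial members lower numbered 19 to 21, 8 to 12 and 18 to 20 in these comparisons and peroxisomal members 11 to 12, 7 to 8 and 11 to 11, and 0 to 1 mitochondrial member was higher in aTX against sTX. Calls in sTX against ctr were gained by Acads (without aTX 3), Acox3 (ctr 2 or 3), Cpt1b (ctr 4 or 5), Etfdh (ctr 4 or sTX 5), Eci1 (sTX 4 or 5), Ppargc1a (sTX 4) and Fabp1 (sTX 2), and in aTX against sTX by Acot2 (ctr 3 or sTX 3). With the replicate number as a block, although the numbers are not known to pair the kidneys, aTX against ctr had 6194 probe sets higher and 6799 lower, with 21 mitochondrial and 11 peroxisomal members lower. The number of arrays and signals near background limit the precision.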

Other observations

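The transcripts of 3 genes were also read by probe sets shared with a relative. The probe set of Acaa1b and Acaa1a, the peroxisomal thiolases, gave 821 to 1339 in ctr, 715 to 1176 in sTX and 269 to 460 in aTX. That of Eci3 and Eci2 gave 1313 to 1537, 827 to 887 and 532 to 729.8, and that of Acot2 and Acot1 gave 206 to 347, 197 to 312.5 and 124 to 246.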
